A study of Mus musculus with 8 samples.

Results

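Endothelial cells line the blood vessels of the liver, and 34 genes that mark them or carry their signals were followed here in whole liver RNA. They were chosen by name, as the rows of the deposited count table whose GENCODE M21 symbol stands in 4 lists: 10 markers of sinusoidal endothelium, 16 pan-endothelial genes, 4 transcription factors and 4 secreted Wnt, BMP and R-spondin signals. They are 34 of the 55335 genes in the table, and 34 of 34 were among the 15234 genes with enough counts to be tested. The lists were chosen with earlier results of these data known. The livers came from 8 female mice that had all received ethanol by the chronic-plus-binge scheme of the NIAAA, so no ethanol-free liver enters any comparison. Mice 28, 34, 37 and 39 are labelled Ripk1-hepKO, in which Ripk1 is deleted in hepatocytes, and mice 29, 32, 40 and 41 are labelled Ripk1-Con. The labels describe the animals as independent, and they give no age, strain or promoter for the deletion. Endothelial cells are not the cells in which Ripk1 was targeted, so the comparison asks whether their RNA in the liver differed between livers whose hepatocytes carried or lacked the gene.

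Liver sinusoids are lined by a flat endothelium full of pores, with no continuous basement membrane, whose cells take up waste molecules from blood through scavenger receptors, lectins and Fc receptors. Endothelial cells also instruct hepatocytes: Wnt ligands and R-spondin from vessels near the central vein keep beta-catenin target genes on in nearby hepatocytes, and BMP ligands from sinusoidal cells drive the iron hormone hepcidin. In injured livers sinusoidal cells can lose these features and take on those of ordinary capillaries, a change called capillarization.

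The promoters below are shown for the sinusoidal and pan-endothelial genes with the highest level per length, Clec4g and Eng, and for one further gene of each kind, Stab1 and Flt1, beside the secreted signal Wnt9b. ETS factors are regulators of endothelial genes, and the capitals mark the letters AGGAAG or CGGAAG on either strand. Both are longer forms of the core GGAA that ETS factors bind, so unmarked stretches and windows can still hold that core. Each run holds the 250 bases before the start of the gene, read 5′ to 3′ on its own strand, from RefSeq on GRCm38.p6.
Clec4g (chr8:3720652-3720901, minus strand): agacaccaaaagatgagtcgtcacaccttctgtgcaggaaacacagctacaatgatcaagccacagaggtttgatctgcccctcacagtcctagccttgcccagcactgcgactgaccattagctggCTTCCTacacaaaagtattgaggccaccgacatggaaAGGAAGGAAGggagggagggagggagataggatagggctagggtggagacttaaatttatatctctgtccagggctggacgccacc
Stab1 (chr14:31168642-31168891, minus strand): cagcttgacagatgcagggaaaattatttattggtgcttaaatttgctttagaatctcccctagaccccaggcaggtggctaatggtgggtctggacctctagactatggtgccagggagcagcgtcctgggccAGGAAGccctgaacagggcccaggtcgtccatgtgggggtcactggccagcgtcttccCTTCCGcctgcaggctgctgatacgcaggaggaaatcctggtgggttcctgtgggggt
Eng (chr2:32646345-32646594, plus strand): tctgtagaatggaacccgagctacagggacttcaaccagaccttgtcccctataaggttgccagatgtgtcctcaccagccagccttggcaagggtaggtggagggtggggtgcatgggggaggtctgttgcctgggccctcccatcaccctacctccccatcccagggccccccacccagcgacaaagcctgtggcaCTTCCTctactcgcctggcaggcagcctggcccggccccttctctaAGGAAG
Flt1 (chr5:147726012-147726261, minus strand): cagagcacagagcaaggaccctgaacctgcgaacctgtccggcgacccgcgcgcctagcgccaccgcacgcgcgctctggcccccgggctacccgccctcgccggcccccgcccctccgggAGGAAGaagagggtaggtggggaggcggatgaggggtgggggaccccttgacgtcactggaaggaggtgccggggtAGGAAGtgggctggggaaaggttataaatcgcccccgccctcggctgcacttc
Wnt9b (chr11:103749822-103750071, minus strand): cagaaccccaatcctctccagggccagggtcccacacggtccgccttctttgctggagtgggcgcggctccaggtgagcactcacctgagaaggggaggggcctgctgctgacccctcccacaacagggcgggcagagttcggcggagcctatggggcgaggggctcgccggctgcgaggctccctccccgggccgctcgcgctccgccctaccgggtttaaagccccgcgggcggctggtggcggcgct
RefSeq promoters matched 18 of the 34 genes with 20 windows, of which 12 (60.0%) held the ETS letters, against 39.2% of the 32851 windows of the same length over 27025 genes. By list, 4 of 6 sinusoidal windows, 8 of 12 pan-endothelial windows and 0 of 2 windows of secreted signals, those of Wnt2 and Wnt9b, held them. The GATA core AGATAA was in 0 of 20 windows (0.0%) against 9.99% of all windows, and the SOX core AACAAT was in 2 of 20, those of Emcn and Tek, against 9.42%. These are matches of letters on either strand, which may overlap one another, and describe the windows alone.

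Libraries held 28038390 to 67328158 counts. Values are CPM, the count of a gene relative to the library's total after TMM scaling. Fold changes set the knockout over the control group on the log2 scale and carry their standard error (SE); gene positions are GENCODE M21 on GRCm38. Ripk1 itself read 38.1, 35.8, 33.1 and 23.1 CPM in the labelled knockout mice and 34.3, 53.6, 27.8 and 34.1 CPM in the labelled controls, in the mouse orders given above, a log2 fold change of -0.21 ± 0.22 (SE). These groups overlapped, and a count over the whole gene in whole liver does not check the labels, since the deleted exons are not given in the sources used here and other liver cells keep the gene. A pair of libraries stood apart in genes other than those followed here. Mouse 28 had 399.8 CPM of Nrp1, a semaphorin and VEGF co-receptor, against 32.1 to 94.7 in the other mice. Nrp1 is among the further endothelial genes counted below. Mouse 40 had the lowest sum of 12 Kupffer cell markers, 120 CPM against 263 to 485. In bulk tissue, fewer cells of a type and less RNA per cell cannot be told apart.

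None of the 34 genes passed the test of genotype at a false discovery rate of 0.05 (edgeR's quasi-likelihood test), where 0 of 15234 genes (0.0%) did, and none was among the 36 genes (0.237% of 15173) that passed with DESeq2. Adjusted p-values of the members ran from 0.742 to 0.997. At an unadjusted p under 0.05, 1 member was higher in Ripk1-hepKO livers, the nitric oxide synthase gene Nos3, against 588 of all genes tested (3.86%), and 0 members were lower, against 429 genes (2.82%). Nos3 was also the 1 member whose groups did not overlap; 306 genes (2.01%) lay wholly higher and 319 (2.09%) wholly lower. Log2 fold changes were above 0 for 22 members and below 0 for 12, with a median of 0.06 beside 0.01 over all genes tested, of which 51.8% were above 0. That count rested on single mice: 10 members were above 0 without control mouse 32, 10 without knockout mouse 39, and 29 without mice 28 and 40.

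The intervals show how large a difference these 8 livers could have hidden. For 27 of the 34 members the 95% confidence interval lay inside 2-fold in either direction, and 1 member, Nos3, had an estimated fold above 1.5. The median size of a member's log2 fold change was 0.11, beside 0.17 over all genes tested. Single mice differed widely: for each member the highest of the 8 livers was 1.55 to 5.94 times the lowest, with a median of 2.29.

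**Figure D1:**
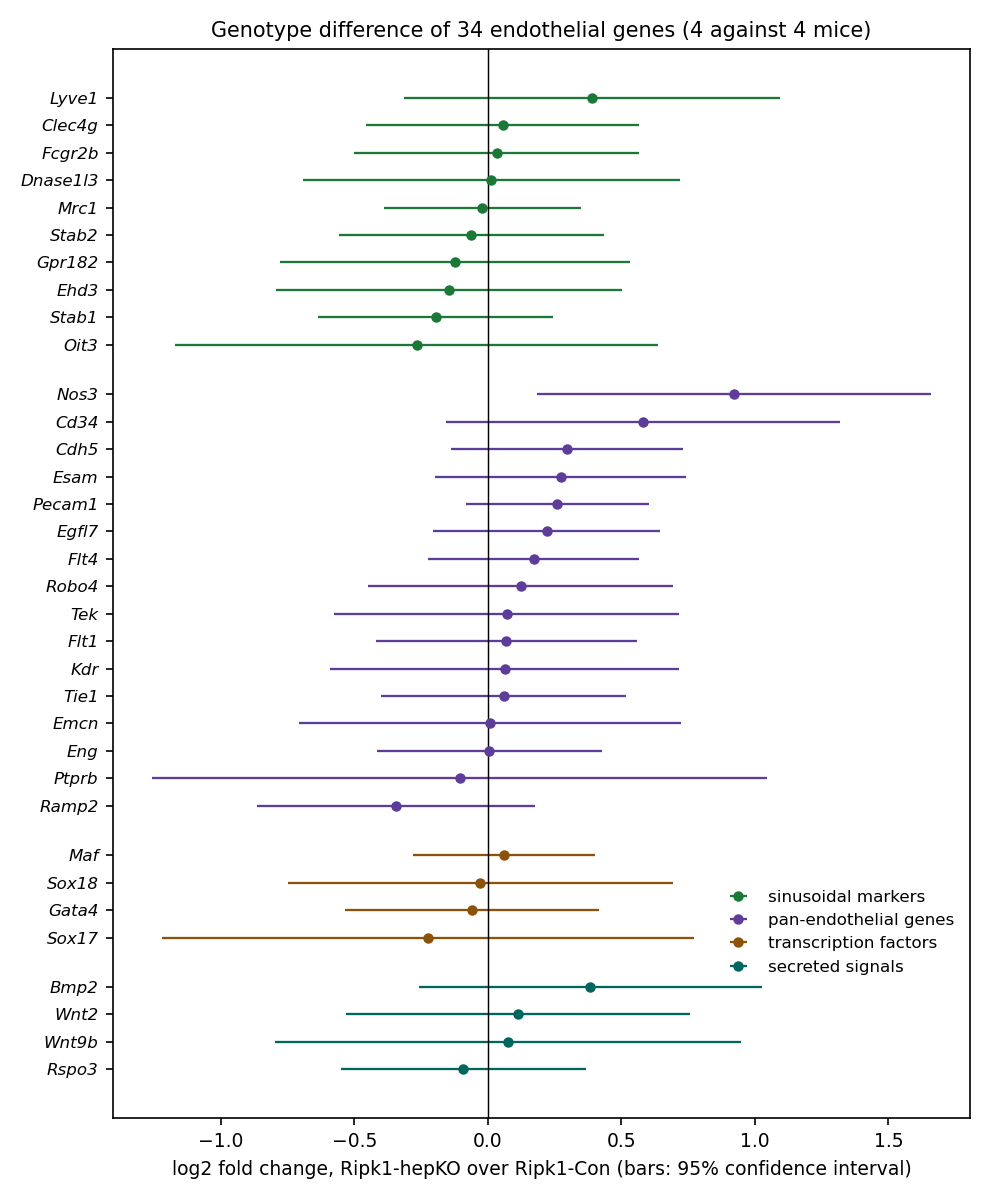
Log2 fold change of each of the 34 genes, Ripk1-hepKO over Ripk1-Con, with bars for the 95% confidence interval, coloured by list. The interval of Nos3 lies wholly above 0, at 0.18 to 1.66, and every other interval crosses 0.

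The same mice were high or low for many of the genes. Mouse 39, a knockout, had the highest level of 17 of the 34 genes, and mouse 32, a control, had the lowest level of 23. The CPM of all 34 genes summed to 567, 559, 570.1 and 837 CPM in knockout mice 28, 34, 37 and 39 and to 674, 429, 686 and 712 CPM in control mice 29, 32, 40 and 41, the order used for every gene below. The highest and the lowest sums therefore belonged to mouse 39 and mouse 32, and the other 6 livers, of both genotypes, lay between 559 and 712 CPM. Mouse 28 differed from the others in which genes were high: it had the highest level of 5 genes, all of them pan-endothelial (Nos3, Cd34, Cdh5, Esam and Pecam1), and the lowest level of 6, of which 2 were sinusoidal markers (Oit3 and Ehd3), 2 transcription factors (Sox17 and Maf) and 2 secreted signals (Wnt9b and Rspo3).

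**Figure D2:**
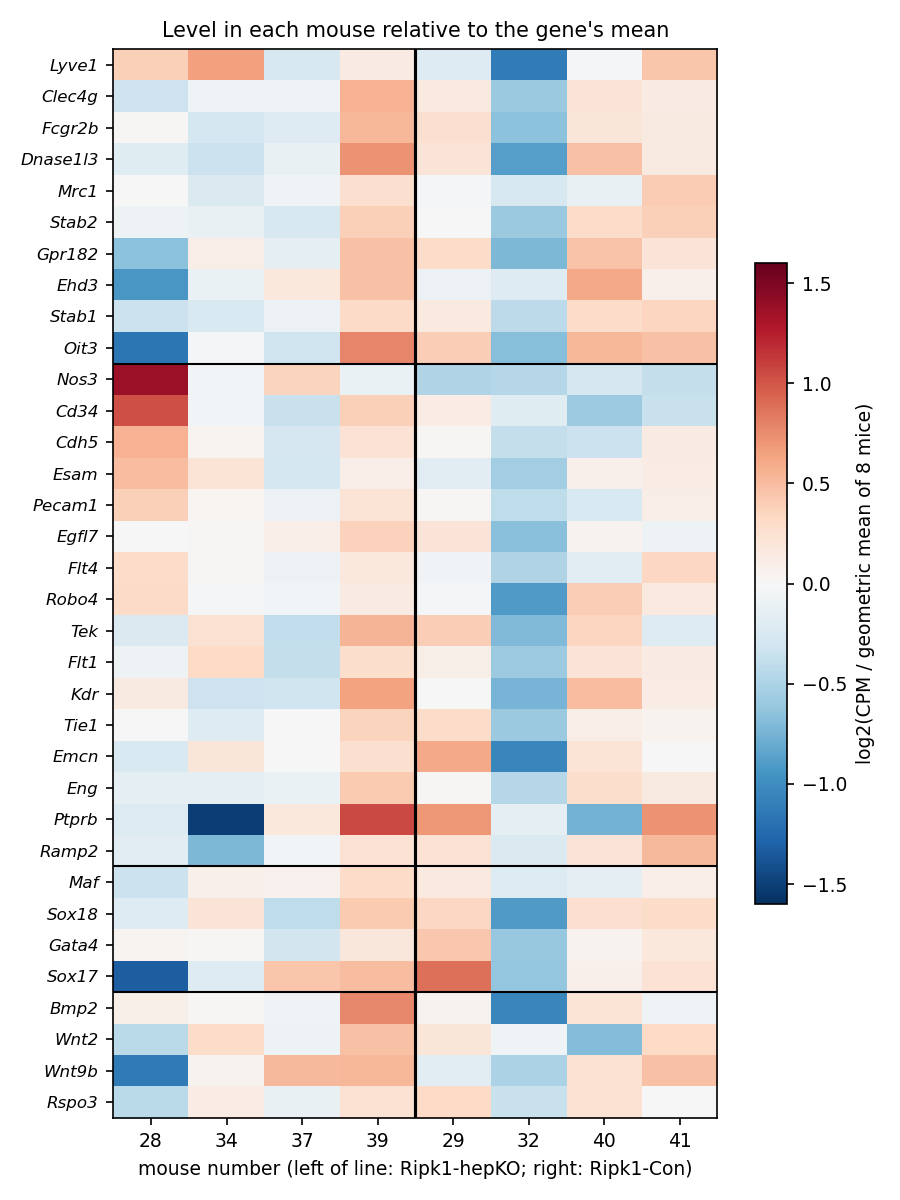
Level of each gene in each mouse as log2 of its CPM over the geometric mean of the 8 mice (red above, blue below), with knockout mice left of the vertical line and lists divided by horizontal lines. Column 32 is blue for most genes and column 39 red, while column 28 is red for Nos3 and Cd34 and blue for Oit3, Ehd3, Sox17 and Wnt9b.

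Per kilobase of exon, which lets genes be compared, 6 of the 7 most abundant members were sinusoidal markers. Clec4g, a lectin of sinusoidal cells, led with a mean of 12.5 CPM per kb over the 8 mice, followed by the endothelial TGF-beta co-receptor Eng at 9.92, Ehd3 at 7.72, Fcgr2b at 6.89 and Oit3 at 6.41. The lowest were Wnt9b at 0.304, Sox17 at 0.273 and Cd34 at 0.218 CPM per kb. Cd34 marks continuous capillary and large vessel endothelium, and it stood last of 34. Neighbours such as Dnase1l3 at 5.75 and Lyve1 at 5.73 CPM per kb lay closer together than the mice did within either gene, so their order is not resolved.

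Among the 10 sinusoidal markers the log2 fold changes had a median of -0.04, with 4 above 0 and 6 below. The scavenger receptor Stab2 (chr10:86841198-87008025), which takes up hyaluronan, read 40.3, 38.9, 35.4 and 55.5 CPM in the knockout and 42.6, 28.05, 52.1 and 55.1 CPM in the control mice. Mouse 39 and mouse 41, one of each genotype, were the highest, mouse 32 was the lowest, and the groups overlapped. The log2 fold change of Stab2 was -0.06 ± 0.22 (SE; unadjusted p = 0.784). Clec4g (chr8:3707064-3720651) read 23.9, 28.7, 28.8 and 44.3 CPM in the knockout and 33.6, 19.98, 34.8 and 32.9 CPM in the control mice. Its knockout mouse 39 stood above all other mice and its control mouse 32 below them, and the log2 fold change was 0.06 ± 0.23 (SE; unadjusted p = 0.813).

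The related scavenger receptor Stab1 ranged from 29.3 to 45.6 CPM in knockout and 27.6 to 47.2 CPM in control mice, with a log2 fold change of -0.20 ± 0.20 (SE). The hyaluronan receptor Lyve1, which lymphatic vessels also carry, had the largest log2 fold change of the list, 0.39 ± 0.31 (SE), on levels of 13.2 to 24.8 CPM in knockout and 7.27 to 21.5 CPM in control mice. Its highest level was in knockout mouse 34 and its lowest in control mouse 32, and without mouse 32 the log2 fold change was 0.17. Of 5 lymphatic markers 4 were tested, 2 above 0 and 2 below (median -0.01 on the log2 scale), and their summed level was 132 to 263 CPM in knockout and 134 to 189 CPM in control mice. Ccl21a and Mmrn1 were 0.695 CPM at most in any mouse, Pdpn was at 0 in some mice of each group, and Prox1, at 113 to 238 CPM, is also a hepatocyte gene. The integrin gene Itga9 ranged from 14.6 to 24.1 CPM in knockout and 9.50 to 15.9 CPM in control mice, with a log2 fold change of 0.52 ± 0.20 (SE; unadjusted p = 0.0311; adjusted p = 0.742). The part of lymphatic vessels in the level of Lyve1 was not tested.

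The receptors that clear immune complexes and glycoproteins had closely matching group means. Fcgr2b, the inhibitory Fc receptor, had a mean of 40.3 ± 11.0 CPM (SD, n = 4) in knockout and 39.5 ± 10.1 CPM (SD, n = 4) in control mice. The mannose receptor Mrc1 had a mean of 31.1 ± 4.39 CPM (SD, n = 4) in knockout and 31.6 ± 6.70 CPM (SD, n = 4) in control mice. Kupffer cells also express both genes, and the summed level of the 12 Kupffer cell markers was 291 to 431 CPM in knockout and 120 to 485 CPM in control livers; its part in these values was not tested. The chemokine-binding receptor Gpr182 (-0.12 ± 0.29), the endocytic ATPase Ehd3 (-0.15 ± 0.29), Oit3 (-0.27 ± 0.40) and the secreted nuclease Dnase1l3 (0.01 ± 0.31, all log2 fold changes ± SE) had wider errors. Oit3 was lowest in knockout mouse 28, at 7.37 CPM, and highest in knockout mouse 39, at 28.2 CPM, so 1 genotype held both ends of its range. Without mice 28 and 40 the median of the list moved from -0.04 to 0.14, and 8 of 10 markers were above 0.

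Log2 fold changes of the 16 pan-endothelial genes had their median at 0.10, with 14 above 0 and 2 below. Without control mouse 32 the count above 0 was 7 and the median -0.08, and without knockout mouse 39 the count was 8 and the median 0.05, so the count depended on each of these 2 livers. Nos3, which makes the vasodilator nitric oxide in endothelium, read 8.45, 3.18, 4.18 and 3.03 CPM in the knockout and 2.34, 2.39, 2.72 and 2.52 CPM in the control mice. Each knockout mouse lay above each control, mouse 28 by far the most, mouse 37 next, and mice 34 and 39 by little. The log2 fold change was 0.92 ± 0.33 (SE), a 1.89-fold difference with a 95% interval of 1.14 to 3.16 (unadjusted p = 0.0198; adjusted p = 0.742 in edgeR and 0.363 in DESeq2). Without mouse 28 it was 0.48.

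Nos3 was next set against endothelial content and against its neighbours on the genome. Per Pecam1, Nos3 was 0.130 to 0.325 in knockout and 0.115 to 0.161 in control mice, ranges that overlap. Nos3 (chr5:24364810-24384474, plus strand) shares 25.2% of its exonic bases with Gm15587 and 7.12% with Atg9b, both on the opposite strand. Gm15587 read at most 0.111 CPM, while Atg9b read 0.953 and 0.892 CPM in mice 28 and 34 and 0.140 to 0.332 CPM in the other 6. The highest level of Atg9b was thus in the mouse with the most Nos3. Mouse 37, next for Nos3 at 4.18 CPM, had the lowest Atg9b, 0.140 CPM. The strand setting of the counts is not given in the sources used here, and the part of these reads in Nos3 was not tested.

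None of the other 15 pan-endothelial genes was at an unadjusted p under 0.05. Cd34 (chr1:194938819-194961279), a surface sialomucin, read 3.04, 1.45, 1.17 and 1.95 CPM in the knockout and 1.63, 1.31, 0.996 and 1.16 CPM in the control mice. The highest value was in mouse 28, while the other 3 knockout mice lay within or just above the control range, and the log2 fold change was 0.58 ± 0.33 (SE; unadjusted p = 0.109). Without mouse 28 it was 0.26. Pecam1 (chr11:106654217-106750628), a junctional adhesion molecule, read 26.0, 20.4, 18.7 and 23.3 CPM in the knockout and 20.3, 15.1, 17.0 and 21.5 CPM in the control mice. The 2 highest mice were knockouts and the 2 lowest were controls, with overlap between, and the log2 fold change was 0.26 ± 0.15 (SE; unadjusted p = 0.120). The VE-cadherin gene Cdh5 (0.30 ± 0.19) and the junction gene Esam (0.27 ± 0.21) had similar log2 fold changes (± SE), each highest in mouse 28. Leaving out knockout mouse 37 put Cdh5 and Cd34 beside Nos3 under an unadjusted p of 0.05.

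Receptors for vascular growth factors had log2 fold changes near 0, with intervals that crossed it. The main VEGF receptor Kdr (chr5:75932827-75978458) read 28.9, 20.9, 21.1 and 41.03 CPM in the knockout and 26.4, 15.7, 36.9 and 28.4 CPM in the control mice. Knockout mouse 39 and control mouse 40 were the highest and control mouse 32 the lowest, and the log2 fold change was 0.06 ± 0.29 (SE; unadjusted p = 0.834). Log2 fold changes (± SE) of the other VEGF receptors were 0.07 ± 0.22 for Flt1 and 0.17 ± 0.18 for Flt4, and those of the angiopoietin receptor genes were 0.07 ± 0.29 for Tek and 0.06 ± 0.20 for Tie1. Eng had nearly equal group means, 40.2 ± 8.42 CPM (SD, n = 4) in knockout and 40.1 ± 8.30 CPM (SD, n = 4) in control mice. Of the ligands for these receptors and other vascular signals, 12 of 15 listed genes were tested, 5 above 0 and 7 below. Their median was -0.04 on the log2 scale, with 0 at an unadjusted p under 0.05. Vegfa, made largely by hepatocytes, ranged from 114 to 163 CPM in knockout and 138 to 152 CPM in control mice, and Angpt2, the angiopoietin of activated endothelium, was too low to test at 0.0996 to 0.502 CPM. The ligands of smallest p were the endothelin gene Edn1 (-0.58 ± 0.47), the ephrin gene Efnb2 (-0.31 ± 0.24) and the pericyte recruitment factor Pdgfb (0.32 ± 0.36, all log2 fold changes ± SE).

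The remaining pan-endothelial genes all had overlapping groups. Egfl7, a secreted matrix protein, had a log2 fold change of 0.22 ± 0.19, the guidance receptor Robo4 0.12 ± 0.25 and the sialomucin Emcn 0.01 ± 0.32 (± SE). Ptprb, the phosphatase that restrains the angiopoietin receptor, had the widest range of the 34 genes: 31.7, 12.9, 41.4 and 76.6 CPM in the knockout and 59.6, 33.1, 21.8 and 60.6 CPM in the control mice. Knockout mice 34 and 39 held its lowest and highest levels, 5.94-fold apart, and the log2 fold change was -0.11 ± 0.51 (SE). Ramp2, a partner of the adrenomedullin receptor, had the lowest log2 fold change of all members, -0.34 ± 0.23 (SE; unadjusted p = 0.171). It shares 33.4% of its exonic bases with Vps25 on the same strand, which read 43.0 to 53.3 CPM against 3.48 to 8.24 CPM for Ramp2, so its count may hold reads of both genes. Eng shares 1.51% of its exonic bases with Fpgs, at 89.6 to 140.0 CPM, and Egfl7 1.79% with Agpat2, at 63.1 to 122 CPM, each on the opposite strand.

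Set against each other, sinusoidal and pan-endothelial RNA kept a similar proportion in most livers. The summed CPM of the 10 sinusoidal markers over that of the 16 pan-endothelial genes was 0.990, 1.40, 1.30 and 1.29 in knockout mice 28, 34, 37 and 39. It was 1.24, 1.26, 1.62 and 1.34 in control mice 29, 32, 40 and 41. The groups overlapped, with mouse 28 the lowest and mouse 40 the highest of the 8. Without Ptprb, the most variable member, the ratio was 1.13 in mouse 28 and 1.49 to 1.78 in the other 7 mice, so mouse 28 remained the lowest.

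**Figure D3:**
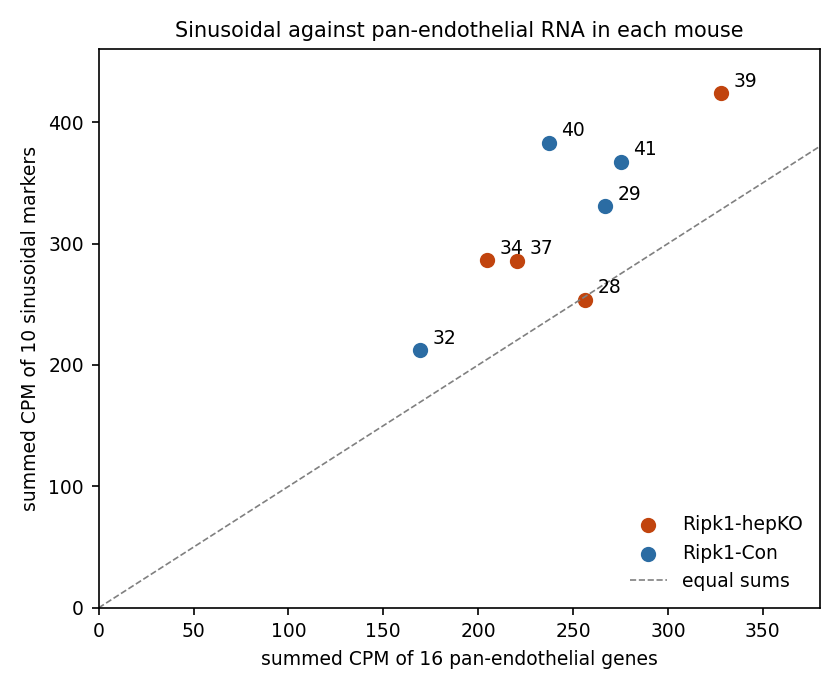
Summed CPM of 10 sinusoidal markers (y axis) against 16 pan-endothelial genes (x axis), 1 point a mouse, with a dashed line where both sums are equal. Knockout mouse 28 lies at the line, with a ratio of 0.990, and the other 7 mice lie above it, with mouse 32 at the low end and mouse 39 at the high end.

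The transcription factors had a median log2 fold change of -0.04, with 1 above 0 and 3 below. Gata4 (chr14:63198922-63271692), which maintains sinusoidal identity and is also made by stellate cells, read 12.9, 12.7, 10.3 and 14.2 CPM in the knockout and 16.9, 8.24, 13.1 and 14.0 CPM in the control mice. Both the highest and the lowest value were in controls, mice 29 and 32, and the log2 fold change was -0.06 ± 0.21 (SE; unadjusted p = 0.784). The log2 fold changes (± SE) were 0.06 ± 0.15 for Maf, which macrophages also express, -0.03 ± 0.32 for Sox18 and -0.22 ± 0.44 for Sox17, both of which are endothelial SOX factors. Sox17 was 0.477 CPM in mouse 28 and 0.776 to 2.196 CPM in the other 7 mice.

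The 4 secreted signals had a median log2 fold change of 0.09, with 3 above 0 and 1 below, and the median was 0.30 without mouse 28 and -0.06 without mouse 39. Bmp2 (chr2:133552159-133562885), which with Bmp6 drives hepcidin in hepatocytes, read 13.1, 12.5, 11.8 and 21.1 CPM in the knockout and 12.9, 5.997, 14.4 and 11.8 CPM in the control mice. Mouse 39 stood above and mouse 32 below the other 6 mice, which spanned 11.8 to 14.4 CPM in both genotypes. The log2 fold change of Bmp2 was 0.38 ± 0.29 (SE; unadjusted p = 0.210), and without mouse 39 it was 0.16.

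The Wnt ligands of vessels around the central vein were low, and their groups overlapped. Wnt2 (chr6:17988940-18030585) read 1.52, 2.51, 1.94 and 2.83 CPM in the knockout and 2.34, 1.96, 1.26 and 2.56 CPM in the control mice. Mouse 39 was the highest and control mouse 40 the lowest, and the log2 fold change was 0.11 ± 0.29 (SE; unadjusted p = 0.704). Wnt9b (chr11:103727364-103749821) read 0.587, 1.34, 1.85 and 1.86 CPM in the knockout and 1.14, 0.905, 1.53 and 1.78 CPM in the control mice. Mouse 28 was the lowest, the other 3 knockout mice lay among the controls or just above them, and the log2 fold change was 0.08 ± 0.39 (SE; unadjusted p = 0.850).

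Rspo3 (chr10:29452416-29535867), the R-spondin that amplifies Wnt signals and that stellate cells also make, read 4.86, 7.14, 6.07 and 7.76 CPM in the knockout and 8.16, 5.11, 7.77 and 6.53 CPM in the control mice. Control mouse 29 was the highest and knockout mouse 28 the lowest, and the log2 fold change was -0.09 ± 0.20 (SE; unadjusted p = 0.663). Its interval ran from -0.55 to 0.37. The Wnt and R-spondin signals therefore showed overlapping groups, and Wnt9b and Rspo3 had their lowest level of the 8 in mouse 28.

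Genes that receive these Wnt signals were read as a list of 26 receptors and hepatocyte targets, with each gene tested singly and no test of the list. Log2 fold changes were above 0 for 5 and below 0 for 21, with a median of -0.12, and 0 had an unadjusted p under 0.05 in either direction. Axin2, the feedback inhibitor of beta-catenin signalling, read 5.79, 10.8, 14.9 and 10.5 CPM in the knockout and 15.2, 12.4, 13.7 and 14.0 CPM in the control mice. Mouse 28 was the lowest and mouse 37, also a knockout, lay among the controls. Log2 fold changes (± SE) were -0.40 ± 0.25 for Axin2, -0.24 ± 0.16 for the pericentral glutamine synthetase Glul, -0.51 ± 0.35 for the R-spondin receptor Lgr5 and -0.42 ± 0.21 for the ethanol-oxidising enzyme Cyp2e1. The smallest unadjusted p-values were 0.0505 for the target Sp5 (-0.89 ± 0.40), 0.0764 for Cyp2e1 and 0.114 for Cyp1a2 (0.39 ± 0.22), a pericentral cytochrome whose log2 fold change had the opposite sign.

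Genes around BMP signalling in hepatocytes gave 14 of 20 above 0 and 6 below, and the median on the log2 scale was 0.04. Hepcidin, encoded by Hamp, read 1207, 43.7, 189.9 and 83.1 CPM in the knockout and 24.6, 3.09, 46.8 and 52.2 CPM in the control mice. Mouse 28 was far above all others, control mouse 32 was far below, and knockout mouse 34 lay within the control range. Bmp2 was also lowest in mouse 32, but it was 13.1 CPM in mouse 28. Mouse 39, with the most Bmp2 at 21.1 CPM, had 83.1 CPM of Hamp. The log2 fold change of Hamp was 3.59 ± 1.19 (SE; unadjusted p = 0.0147; adjusted p = 0.742). The BMP target Id3 had a log2 fold change of 1.97 ± 0.71 (SE; unadjusted p = 0.0225) with 119 CPM in mouse 28 and 8.68 to 25.4 CPM in the other 7. Hamp and Id3 were the 2 genes of the list at an unadjusted p under 0.05, both higher, beside 3.86% of all genes tested. Without mouse 28 there were 0. Id1 (0.65 ± 0.39) and the ligand Bmp6 (0.63 ± 0.44, log2 fold changes ± SE) had overlapping groups. Bmp6 was highest in mouse 39, at 5.40 CPM, the mouse that also had the most Bmp2.

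**Figure D4:**
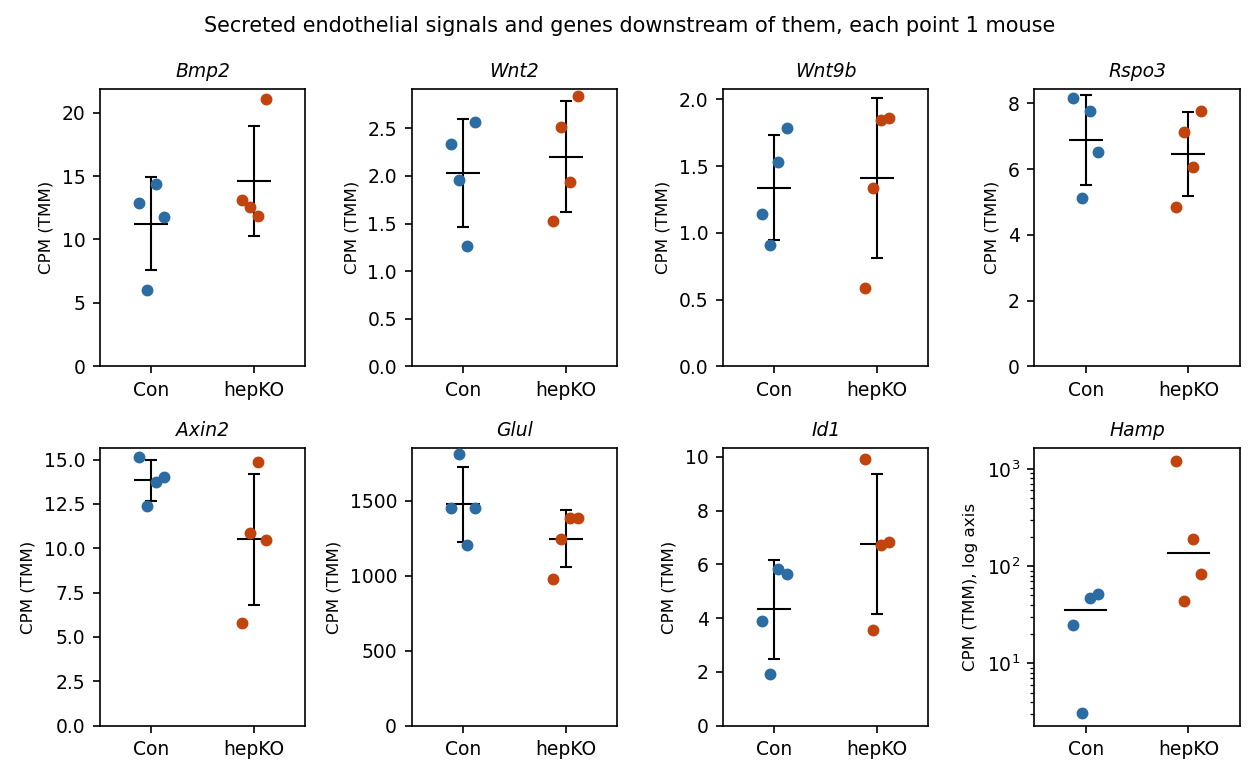
CPM in each mouse of the 4 secreted signals (top) and of genes that respond to Wnt (Axin2, Glul) or BMP (Id1, Hamp) signals (bottom), with bars for the mean ± SD. Hamp is drawn on a log axis with a line at the median; each panel has overlapping groups, and mouse 28 gives the highest Hamp and Id1 and the lowest Axin2.

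Ligands and targets were compared across the 8 mice in 7 pairs, on log2(CPM + 1), with exact two-sided permutation tests over every pairing of the mice, adjusted by Benjamini-Hochberg over the 7 pairs. The largest correlation was between Bmp2 and Id1, with Pearson's r of 0.69 (exact permutation p = 0.0534, adjusted 0.285) and Spearman's rho of 0.64 (exact permutation p = 0.0962, adjusted 0.545). Without mice 39 and 32, the farthest from the median of Bmp2, r was 0.08 over 6 mice whose Bmp2 spanned only 11.8 to 14.4 CPM, so the relation rested on the range those 2 livers gave. Without mouse 28 alone it was 0.80. Bmp2 and Hamp had r of 0.54 (exact permutation p = 0.160, adjusted 0.285; rho 0.38, exact permutation p = 0.360, adjusted 0.545) with r of -0.04 without the same mice and 0.73 without mouse 28 alone. Among the signals, Wnt9b and Rspo3 had r of 0.61 (exact permutation p = 0.1104, adjusted 0.285; rho 0.36, exact permutation p = 0.389, adjusted 0.545), which became -0.59 without mice 28 and 32 and 0.30 without mouse 28 alone. The other 4 pairs (Wnt2 with Rspo3, Wnt9b and Axin2, and Rspo3 with Axin2) had r of 0.22 to 0.54, exact permutation p of 0.163 to 0.620 and adjusted p of 0.285 to 0.620. Their rho ran from -0.05 to 0.45, with exact permutation p of 0.267 to 0.935 and adjusted p of 0.545 to 0.935. Without the 2 farthest mice Rspo3 and Axin2 had r of -0.23, Wnt2 and Axin2 -0.52, Wnt2 and Wnt9b 0.43 and Wnt2 and Rspo3 0.73. Without mouse 28 alone these 4 pairs had r of -0.43 to 0.17. All of these r pooled both genotypes, so a difference between the groups can enter them. Taken as deviations from the group means, r was 0.61 for Bmp2 and Id1 and 0.37 for Bmp2 and Hamp. By the same measure r was 0.62 for Wnt9b and Rspo3 and 0.38 to 0.54 for the other 4 pairs.

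Endothelial genes outside the 34 were read beside Nos3, in a list chosen with earlier results of these data known. Of 34 listed, 33 were tested, with 26 above 0 and 7 below (median 0.25 on the log2 scale). At an unadjusted p under 0.05, 7 were higher (Fli1, Ets1, Klf2, Klf4, Bcl6b, Cd93 and Acvrl1), beside 3.86% of all genes tested. Each of these 7 was highest in mouse 28. Whole liver RNA does not tell which cells carried these 7, and the part of other cell types in them was not tested. Without mice 28 and 40 the genes under that p were 3, Klf2, Klf4 and Bcl6b. Bcl6b, an endothelial transcriptional repressor, read 4.44, 2.87, 3.43 and 3.03 CPM in the knockout and 0.856, 1.41, 0.830 and 1.02 CPM in the control mice. Every knockout mouse was at least 2 times as high as every control mouse, with a log2 fold change of 1.73 ± 0.25 (SE; edgeR unadjusted p = 6.03e-05 and adjusted p = 0.742; DESeq2 adjusted p = 6.32e-06). Per Pecam1, Bcl6b was 0.130 to 0.183 in knockout and 0.0421 to 0.0932 in control mice, with no overlap.

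Klf2, a factor induced by blood flow that promotes Nos3 expression, read 11.7, 7.22, 6.96 and 5.36 CPM in the knockout and 4.14, 5.16, 3.02 and 4.08 CPM in the control mice. The groups did not overlap, and the log2 fold change was 0.93 ± 0.26 (SE; unadjusted p = 0.00608; adjusted p = 0.742). Its relative Klf4 read 3.59, 1.98, 1.73 and 1.37 CPM in the knockout and 0.998, 1.002, 0.830 and 0.974 CPM in the control mice. Its groups did not overlap either, mouse 28 was again the highest, and the log2 fold change was 1.19 ± 0.32 (SE; unadjusted p = 0.00453; adjusted p = 0.742). Per Pecam1, Klf2 was 0.230 to 0.451 in knockout and 0.178 to 0.342 in control mice, which overlap.

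**Figure D5:**
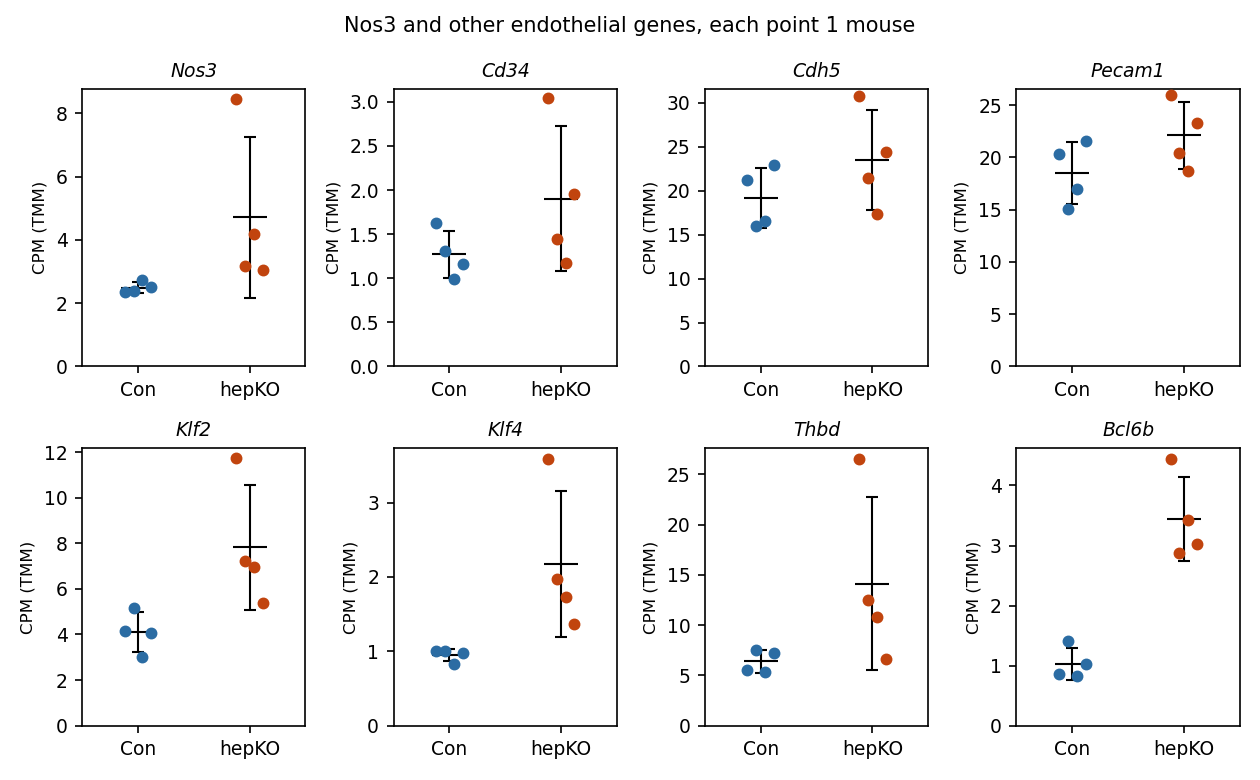
CPM in each mouse of 4 pan-endothelial members (top) and of Klf2, Klf4, Thbd and Bcl6b (bottom), with bars for the mean ± SD of 4 mice. Groups do not overlap for Nos3, Klf2, Klf4 and Bcl6b, and mouse 28 gives the highest point of every panel.

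Genes of capillarization, basement membrane and larger vessels were read beside the sinusoidal markers, in a list also chosen with earlier results known. Of 23 listed, 22 were tested, 18 above 0 and 4 below (median 0.37 on the log2 scale). At an unadjusted p under 0.05, 6 were higher (Col4a1, Col4a2, Selp, Icam1, Thbd and Gja4), beside 3.86% of all genes tested. The basement membrane collagen Col4a2 read 40.1, 27.6, 21.8 and 31.1 CPM in the knockout and 19.0, 16.7, 19.6 and 19.9 CPM in the control mice. Its groups did not overlap, and the log2 fold change was 0.68 ± 0.18 (SE; unadjusted p = 0.00349; adjusted p = 0.742), with 0.93 ± 0.28 for its partner Col4a1 and 0.64 ± 0.21 for the leukocyte adhesion gene Icam1. Without mice 28 and 40 the median was 0.16 and 4 genes were under that p. Groups did not overlap for 5 of the 22, all higher in the knockout: both collagens, the laminin gene Lamb1, the adhesion gene Selp (2.15 to 8.27 CPM in knockout and 0.792 to 1.80 CPM in control mice) and the arterial connexin gene Gja4 (3.65 to 8.67 CPM in knockout and 1.597 to 3.45 CPM in control mice), beside 2.01% of all tested genes. All 5, and Icam1 and Thbd too, were each highest in mouse 28. Col4a1 read 92.3 CPM in that mouse and 34.1 to 52.6 CPM in the other knockout mice. The groups overlapped for Plvap, a gene of endothelial diaphragms, at 31.6 to 39.2 CPM in knockout and 28.9 to 37.9 CPM in control mice, and for Vwf, at 4.25 to 7.94 CPM in knockout and 5.75 to 8.30 CPM in control mice.

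Other cell types in the same livers were read from marker lists. Stellate cells, which also make type IV collagen, had 14 of 14 markers above 0 (median 0.34 on the log2 scale). Their summed level was 531 to 638 CPM in knockout and 446 to 517 CPM in control mice, with no overlap of the sums and no marker at 0. Taken singly, each of the 14 markers had groups that overlapped. Whether the counts above 0 of the lists outside the members held with a mouse left out was not tested. Lrat (0.72 ± 0.31) and Hgf (0.63 ± 0.27, log2 fold changes ± SE) were the 2 higher at an unadjusted p under 0.05, beside 3.86% of all genes tested. Without mouse 28 there were 0. Cholangiocyte markers gave 5 of 5 tested above 0, with sums of 15.5 to 63.0 CPM in knockout and 13.7 to 34.6 CPM in control mice. Hepatocyte markers gave 3 of 10 above 0, with sums of 95225 to 116747 CPM in knockout and 107758 to 136159 CPM in control mice. Alb, the albumin gene and by far the largest of them, had a log2 fold change of -0.43 ± 0.15 (SE) and groups that did not overlap. Of the 10 hepatocyte markers, 2 lay wholly lower in the knockout, Alb among them, beside 2.09% of all genes tested. At an unadjusted p under 0.05, 2 of the 10 were lower, beside 2.82% of all genes tested. B cell markers summed to 0.614 to 2.73 CPM in knockout and 0.711 to 2.88 CPM in control mice, with Ms4a1 and Blk at 0 in some mice of each group, and platelet markers to 2.44 to 5.37 and 2.55 to 3.52 CPM. The part of these cell types in the values of Nos3, the collagens and the other vessel genes was not tested.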

How the data were processed

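Liver RNA of 8 mice was extracted with TRIzol, selected for poly(A) tails and made into dUTP-stranded paired-end libraries, per the labels' protocols. The authors deposited 1 table of whole-number counts per Ensembl gene, not normalized. The submitters' processing notes list GRCm38.p6, DESeq2 1.38.1 and StringTie 2.2.1 beside STAR 2.5.2b and FastQC 0.11.5, without roles. The counting tool, strand setting and annotation release are not given in the sources used here, so genes that overlap are uncertain. Symbols, exon lengths and positions came from GENCODE M21, which matched 55154 of 55335 IDs and left 181 unmatched.

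Counts were filtered with filterByExpr, scaled by TMM and tested with edgeR 4.0.16 (robust quasi-likelihood fit of genotype in R 4.3.3, Benjamini-Hochberg over 15234 genes). The fit was tested on simulated data in which only genes well above the level of the lowest members were changed, so it does not cover those members. Mouse numbers are not shared by the groups, so nothing pairs the mice. Library totals of 28038390 to 67328158 gave 26 to 4244 counts for a member in a library. The biological coefficient of variation was 0.292. Reads carry no molecular identifiers, so counting error is only part of the error.

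Alternatives were DESeq2 1.42.0 size factors and Wald test, library size alone, limma 3.58.1 voom, no filter, at least 1 CPM in 4 libraries, each mouse left out, mice 28 and 40 left out, and a pseudocount of 0.25 in place of 1 for correlations. Counts of members above 0, and counts at an unadjusted p under 0.05 for lists that hold no members, were put through them only after the data had been seen. Counts above 0 for those further lists were not put through them.

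Members and lists were chosen with earlier results of these data known. Named genes are the 34 members, up to 3 genes of smallest unadjusted p of each further list described by name, and Axin2, Glul, Lgr5, Cyp2e1, Hamp, Id1, Bmp6, Vegfa, Angpt2, Bcl6b and Ripk1. Full values by mouse were planned for members with an unadjusted p under 0.05 or groups that do not overlap and for Stab2, Clec4g, Pecam1, Kdr, Cd34, Gata4, Bmp2, Wnt2, Wnt9b and Rspo3. Further names (Nrp1, Atg9b, Thbd, Plvap, Vwf, the lymphatic markers, Alb and the genes listed beside a count) and the values by mouse of Ptprb, Axin2, Hamp, Bcl6b, Klf2, Klf4 and Col4a2 were chosen after their values were seen.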

Additional observations from a re-analysis of the deposited data

Results flagged for a closer look

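In 7 of 68 groups of 4 mice, 1 mouse lay farther from the rest than Dixon's test for a single outlying value allows. Chance alone gives about 3.4 on average. The genes were measured in the same mice and often ran high or low together, so 7 beside 3.4 is not a test. Among controls, mouse 32 was far below the other 3 for Clec4g (19.98 CPM), Fcgr2b (24.52 CPM), Oit3 (10.23 CPM) and Sox18 (0.9699 CPM). Among knockouts, mouse 39 was far above the other 3 for Dnase1l3 (46.28 CPM), Eng (52.82 CPM) and Bmp2 (21.1 CPM). The 7 values thus came from 2 livers, 4 from mouse 32 and 3 from mouse 39.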

How the results depend on the processing

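No member passed a false discovery rate of 0.05 under any of the 15 alternatives, and Nos3 kept an unadjusted p under 0.05 in all of them. No paired analysis was possible because the groups share no mouse number. Of the 34 members, 11 kept their sign under every alternative (Stab1, Lyve1, Pecam1, Flt4, Cdh5, Nos3, Egfl7, Esam, Cd34, Ramp2 and Bmp2) and 23 changed it under at least 1. The cause was not tested. Members had 26 to 4244 counts in a library, so counting error weighs most on the lowest, such as Sox17 and Wnt9b. With library size alone the log2 fold change was 0.0178 for Mrc1 and 0.003415 for Sox18, and with limma voom it was 0.0906 for Sox18 and 0.0255 for Gata4. Without mice 28 and 40 the median of the sinusoidal markers was 0.14, and log2 fold changes were 0.0488 for Stab2, 0.0827 for Oit3, 0.17 for Gpr182, 0.27 for Ehd3, 0.12 for Sox18, 0.006474 for Sox17 and 0.0878 for Rspo3.

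With each mouse left out in turn, the members higher at an unadjusted p under 0.05 numbered 1 to 3 (3 without mouse 37). The members above 0 numbered 10 to 27. The median log2 fold change ran from -0.25 to 0.0501 for sinusoidal markers, from -0.24 to 0.0809 for transcription factors and from -0.0616 to 0.30 for secreted signals. For members that changed sign in this way it ran as follows: Stab2 -0.23 to 0.0592, Clec4g -0.15 to 0.17, Fcgr2b -0.17 to 0.13, Gpr182 -0.32 to 0.0447, Mrc1 -0.11 to 0.14, Dnase1l3 -0.28 to 0.19, Ehd3 -0.35 to 0.0658, Kdr -0.18 to 0.26, Flt1 -0.083 to 0.19, Tek -0.12 to 0.22 and Tie1 -0.0966 to 0.17. The others were Eng -0.15 to 0.11, Emcn -0.24 to 0.25, Ptprb -0.60 to 0.20, Robo4 -0.0867 to 0.30, Sox18 -0.26 to 0.0956, Sox17 -0.43 to 0.0728, Gata4 -0.23 to 0.089, Maf -0.0293 to 0.17, Wnt2 -0.0459 to 0.25, Wnt9b -0.091 to 0.34 and Rspo3 -0.21 to 0.0255. Without the 2 farthest mice r was -0.59 for Wnt9b and Rspo3, -0.23 for Rspo3 and Axin2, -0.52 for Wnt2 and Axin2 and -0.0367 for Bmp2 and Hamp.

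Higher genes at an unadjusted p under 0.05 in the further lists also varied. Stellate cell markers numbered 4 with library size alone, 1 with limma voom, 0 without mice 28 and 40, and 0 to 4 with each mouse left out. Genes of BMP signalling numbered 1 with limma voom, 1 without mice 28 and 40, and 0 to 3 with each mouse left out. Further endothelial genes numbered 3 without mice 28 and 40, and Wnt receptors and targets 0 to 1 with each mouse left out.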
